A study of Homo sapiens with 8 samples.

Results

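The libraries described here are the 2 construct microvesicle libraries and the 2 construct cell lysate libraries, 4 of the 8 in the series, taken by their labels (replicates II and III in each compartment). All came from HEK 293T, an established line derived from human embryonic kidney, transfected with the TRACE pair named GFP-C-YTHDF1/GBP1-CD9. Every culture, controls included, was kept in medium with exosome-depleted serum and RNase A. The 4 control libraries came from HEK 293T cells given GFP/GBP1-CD9, a pair without YTHDF1 in which the CD9 fusion is also present: lysates and microvesicles, replicates I and II of each. Vesicles were obtained by serial ultracentrifugation with a filtration step, and the design text states that each lysate belongs to the same sample as its microvesicles. The labels do not say how many dishes a library pooled, nor when after transfection material was taken. The question addressed is which RNAs differ in level between construct microvesicles and the cells that shed them.

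Microvesicles are membrane vesicles that bud from the plasma membrane and enclose cytoplasm, so most of the RNA they hold comes from the cytoplasm of the donor cell. CD9 is a tetraspanin of the plasma membrane and of vesicle membranes. YTHDF1 is a cytoplasmic reader of N6-methyladenosine, a base modification of messenger RNA that lies mostly in sequence contexts such as GGACT, and it has been linked to translation. Enrichment and depletion in vesicles are read here only against the lysate of the same cultures.

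The file counts reads on the exon intervals of GENCODE release 19, an hg19 annotation, and all 1190053 counts lay on its 5363 features of chromosome 1. Neither YTHDF1 nor CD9 lies on chromosome 1, so the fusion could not be checked in any library. The counts sat where GRCh38 places abundant genes, not where the feature names do. Of the 5 ribosomal protein genes listed below, features carrying their symbols held 0.0932% and 0.0665% of the counts of construct cells II and III, and features at their GRCh38 positions held 1.47% and 1.53%. Each interval is therefore called by the RefSeq GRCh38 genes whose spans lie under it, up to 3 joined by a slash; 1398 of the 5363 features had no such gene and 1147 had at least 2. Which of the joined genes gave the reads cannot be told, nor whether reads came from exons or introns, and processed pseudogenes under an interval (RPL19P3, RPL10P4, PFN1P1) make names uncertain. Coordinates below are the interval's own numbers on chromosome 1, read on GRCh38. Of the 6 chromosome 1 genes listed as expressed in HEK 293T cells, LIN28A, NES, HMGN2 and RPL5 had 0 counts under their spans in the construct libraries, and STMN1 and ENO1 had 6 and 16 in the cells, so the cell type could not be checked well on these intervals.

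Libraries were shallow. Construct cells had 42950 and 58664 counts (II and III), construct microvesicles 34602 and 64025, control cells 109099 and 163157, and control microvesicles 238416 and 479140. The features ENSG00000228794 and ENSG00000143514 were left out before scaling: they held 11.7% and 28.2% of construct microvesicle counts and 0.0978% and 0.046% of construct cell counts. What remained was 30552 and 45946 counts in microvesicles and 42908 and 58637 in cells. Levels below are CPM, counts scaled to a common library total, after TMM scaling over the features tested, and counts are given per library in the order cells II, cells III, microvesicles II, microvesicles III. A feature at 0 shows only that it was not detected at this depth.

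Construct microvesicles held a smaller share of counts on protein-coding gene spans than their lysates and a larger share on intervals with no gene. Protein-coding spans took 92.5% and 92.4% of construct cell counts (II and III), against 90.3% and 82.6% in microvesicles. Intervals with no GRCh38 gene took 1.55% (exact 95% Clopper-Pearson interval 1.43 to 1.67) and 1.55% (1.45 to 1.65) in cells, but 2.99% (2.80 to 3.19) in microvesicles II and 9.04% (8.78 to 9.30) in microvesicles III. Both microvesicle libraries lay above both cell libraries, and microvesicles III lay further from microvesicles II than II did from the cells. Intervals over other genes alone, such as long non-coding RNAs and pseudogenes, took 5.99% and 6.03% of cell counts against 6.74% and 8.33%. In control microvesicles 11.8% and 13.4% of counts lay on intervals with no gene, against 1.29% and 1.24% in control cells. With the 2 dominant features kept, these shares were 6.89% and 4.23% in control microvesicles and 2.64% and 6.49% in construct ones, so the order of the cultures rests on leaving them out. Intervals with a pseudogene among their genes, a class added after seeing the data, held 32.2% and 33.4% of construct cell counts and 24.1% and 16.7% of microvesicle counts. With 2 libraries against 2 an exact permutation test cannot give a p below 0.333, so no test is given for these shares; intervals cover counting error only.

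**Figure D1:**
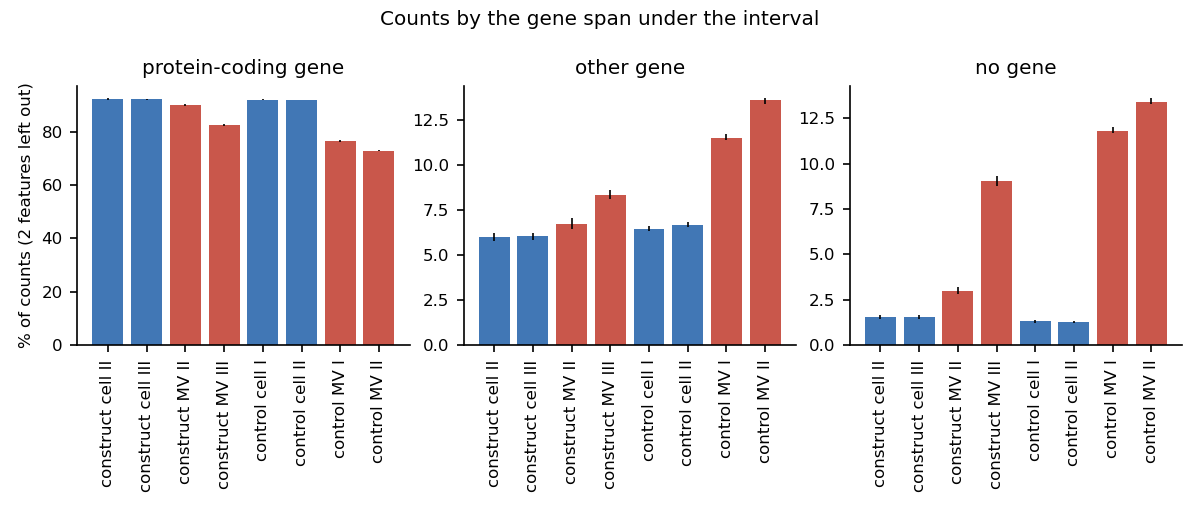
Share of each library's counts (y axis, percent, the 2 dominant features left out) on intervals over a protein-coding gene span, over other genes only, and over no gene, with exact 95% counting intervals; blue bars are cell lysates and red bars microvesicles, and each panel has its own y axis from 0. Microvesicle libraries are above cell libraries for intervals with no gene, at 2.99% and 9.04% in construct and 11.8% and 13.4% in control cultures.

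The 2 construct microvesicle libraries were less alike than the 2 lysates. Microvesicles II had at least 10 counts on 327 features and microvesicles III on 911, and the 253 shared ones made up 77.4% of the first and 27.8% of the second. In cells these were 471 and 533, and the 437 shared ones made up 92.8% and 82.0%. At a common depth of 30552 counts, 1531 and 2494 features would have a count in microvesicles II and III, and 1652 and 1679 in cells. The 10 most abundant features held 30.9% and 18.9% of microvesicle counts and 20.9% and 19.6% of cell counts. Across the 1409 features tested, Spearman's correlation was 0.864 between the lysates, 0.373 between the microvesicle libraries and 0.348 between each microvesicle library and its own lysate. Against the other culture's lysate it was 0.361 for microvesicles II and 0.357 for III, so on this measure a vesicle library was no closer to its own lysate. Of the 437 features with at least 10 counts in both lysates, 180 also had at least 10 in both microvesicle libraries, 78 were at 0 in one of them and 18 at 0 in both. The reverse, at least 10 counts in both microvesicle libraries and 0 in both lysates, held for 3 features. Most RNAs abundant in both lysates therefore had a count in at least one vesicle library.

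Of 1409 features tested, edgeR called 6 higher (0.426%) and 64 lower (4.54%) in construct microvesicles than in construct cells at a Benjamini-Hochberg adjusted p under 0.05. An unadjusted p under 0.05 was reached by 124 on the higher and 209 on the lower side. The lower ones were mostly protein-coding spans, 61 of 64, and the higher ones were 4 protein-coding spans and 2 intervals with no gene. Microvesicle and cell libraries did not overlap for 736 features (52.2%), 321 higher and 415 lower. The median log2 fold change was 0.36 over all features tested, 0.00 over 1118 protein-coding spans, 1.18 over 153 intervals of other genes and 1.61 over 138 with no gene. Vesicle and cell number and the RNA content of each cannot be told apart, since only shares of a library are measured. Scaling moved the balance: upper-quartile factors gave 12 higher and 32 lower with a median of 1.04, DESeq2 size factors 11 and 48 with 0.65, and library size alone 0 and 0 with 1.25. The filter moved the balance as well. A filter on the 4 construct libraries left 566 features and gave 45 higher and 46 lower, with a median of -0.02. The excess of lower calls was thus not seen under that filter. The 4 construct libraries alone gave 0 and 0 of 551 features with their own filter, and 20 and 73 with the features kept. With the culture as a replicate block the counts were 15 higher and 73 lower. Leaving out any 1 of the 4 cell libraries, control ones included, gave 0 calls. The direction of the 70 calls did not turn under any of these settings that kept the feature. Libraries did not overlap for any of the 64 lower or 6 higher features, which largely fixed this outcome in advance.

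**Figure D2:**
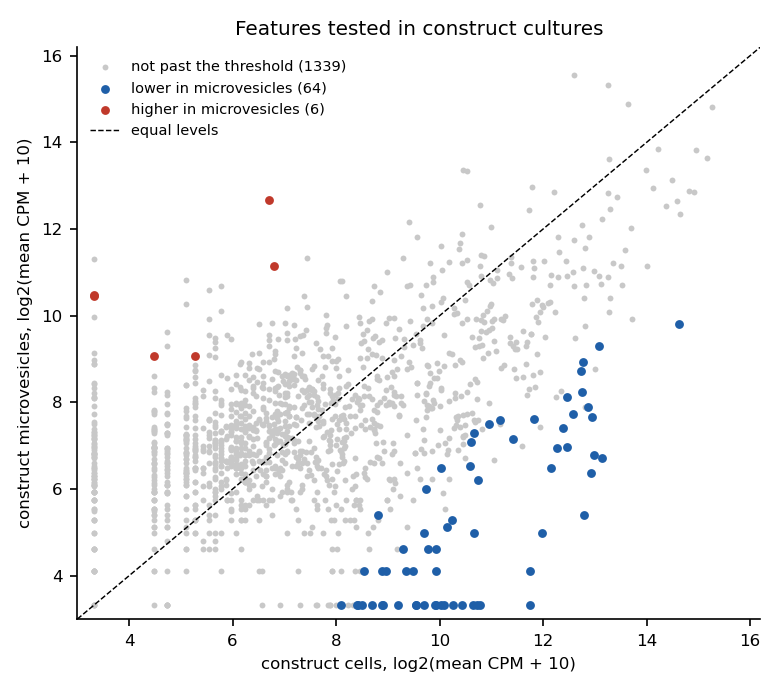
Mean level of each of the 1409 features tested in construct cells (x axis) and construct microvesicles (y axis), both as log2(mean CPM + 10); the dashed line marks equal levels, blue points are the 64 lower and red points the 6 higher features. The blue points lie below the line, and 21 of the 64 have 0 microvesicle counts.

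The 6 higher features were all rare in the cells. PKP1 (201252580 to 201302121), which encodes plakophilin 1, a plaque protein of desmosomes, had 0, 0, 67 and 30 counts. No cell library had a count, and the group was at least 33.4-fold higher in microvesicles (edgeR adjusted p = 0.0287). The bound was 10.4 without microvesicles II and 56.3 without III, and 19.2 and 14.2 without cells II or III. GRIK3 (36931644 to 36948879), a kainate-type glutamate receptor subunit, had 0, 0, 75 and 12 counts and was at least 33.6-fold higher (adjusted p = 0.0461). Here microvesicles II carried most of the reads: the bound was 4.16 without it and 63.1 without microvesicles III, and 19.3 and 14.3 without cells II or III. Over all 7 intervals at GRIK3, 2 of them tested, microvesicles II and III had 75 and 13 counts. Nearly all counts on these 7 intervals thus lay on the 1 called. Reads elsewhere along the gene were not counted. The interval of ENSG00000188976.6 (879584 to 894689), under which GRCh38 has no gene, had 2, 5, 80 and 701 counts, at 6.08 ± 1.13 in log2 fold change (± SE; adjusted p = 0.0201). Its ratio of mean CPM was 69.5, and 30.1 without microvesicles III and 109 without II. A second interval with no gene, ENSG00000231768.1 (234663637 to 234667525), had 0, 1, 6 and 58 counts, a ratio of 47.1 (exact 95% interval 8.16 to 1890, adjusted p = 0.0461). Its ratio of mean CPM was 43.4, and 69.4 and 17.4 without microvesicles II or III and 21.7 without cells II. Exact intervals of ratios, here and below, pool the libraries of a group and cover counting error only. TCHHL1/LOC100131107 (152078793 to 152086556), at a trichohyalin-like gene of the epidermal cluster, had 1, 7, 65 and 152 counts and 4.40 ± 1.06 (adjusted p = 0.0419). Its ratio of mean CPM was 22.2, and 13.2 and 68.5 without cells II or III. SLAMF6/CD84/CD84-AS1 (160510885 to 160549306), at leukocyte receptors of the SLAM family, had 1, 1, 18 and 29 counts and a ratio of 17.3 (4.53 to 147, adjusted p = 0.0422). In control cultures 3 of these 6 were also called higher.

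On the lower side, 21 of the 64 features had 0 counts in both microvesicle libraries and 16 had 1 to 3. Microvesicles II alone was at 0 for 37 and microvesicles III for 21, so every feature at 0 in III was at 0 in II as well. The largest bound belonged to MIR4422HG/GYG1P3 (55222571 to 55230187), a microRNA host gene over a pseudogene of glycogenin, with 107, 138, 0 and 0 counts and at least 111-fold lower (edgeR adjusted p = 0.0201). SLC16A1 (112913626 to 112913729), the lactate and pyruvate transporter MCT1, had 47, 79, 0 and 0 counts, at least 56.1-fold lower in vesicles (adjusted p = 0.0201). AMPD2 (109630593 to 109633480), an AMP deaminase, had 62, 54, 0 and 0 counts, at least 54.3-fold lower (adjusted p = 0.0201). The lysate levels were 3450 ± 116 CPM (SD, n = 2) for MIR4422HG/GYG1P3 and 1740 ± 266 for SLC16A1. Without microvesicles III, the library with more counts, the bounds were 32.5 for MIR4422HG/GYG1P3, 16.4 for SLC16A1 and 15.8 for AMPD2. A longer interval, SLC16A1-AS1/SLC16A1, had 33, 30, 6 and 16 counts and did not pass (-2.02 ± 0.91, adjusted p = 0.207). Further features at 0 in both microvesicle libraries lay at SCP2, a peroxisomal sterol carrier (28 and 50 cell counts), TTF2, a transcription termination factor (27 and 49), UBAP2L, a stress granule protein (29 and 40), SHC1, a signalling adaptor (25 and 27), and TUT4, which adds uridines to RNA tails (7 and 18).

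Other strongly lower features kept a few vesicle reads. WDR77/OVGP1/UBE2FP3 (111415775 to 111442550) had 103, 141, 0 and 1 counts, a cell to microvesicle ratio of 331 (58.9 to 13100, edgeR adjusted p = 0.0201); WDR77 is the partner of the arginine methyltransferase PRMT5. TDRKH/LOC100270670 (151772740 to 151778630), at a Tudor-domain gene of the piRNA pathway, had 203, 304, 1 and 2 counts and a ratio of 229 (78.1 to 1120, adjusted p = 0.0201). ZNF678/FAM133FP (227598318 to 227599020), a zinc finger gene over a pseudogene, had 131, 151, 0 and 3 counts and a ratio of 128 (43.2 to 623). In each of these the vesicle counts stayed under 5 while both lysates had over 100. LINC02771 (212472837 to 212505055), a long non-coding RNA, had 219, 345, 0 and 10 counts and fell by 6.51 ± 1.20 in log2 terms (± SE; adjusted p = 0.0201). CTPS1 (40997233 to 41013841), a CTP synthase, had 194, 398, 4 and 4 counts and fell by 6.41 ± 1.21 (adjusted p = 0.0201). Its ratio of mean CPM was 80.6, and 138 without microvesicles II. The ratio was 95 (16.5 to 3810) for IQGAP3, a scaffold of the actin cytoskeleton (28, 42, 0 and 1 counts), 69.2 (11.9 to 2790) for TMEM39B/KPNA6, where KPNA6 is an importin (20, 31, 0 and 1), and 63.8 (10.9 to 2570) for WLS/GNG12-AS1, where WLS escorts Wnt proteins (16, 31, 0 and 1). Of the other intervals over IQGAP3, 1 had a positive value, with 4, 5, 2 and 22 counts (0.71 ± 1.13). Microvesicles II had no read on several of these, and the ratio of mean CPM without it fell from 469 to 234 for WDR77, 183 to 91.5 for ZNF678, 134 to 66.8 for IQGAP3, 107 to 53.6 for LINC02771, 97.1 to 48.5 for KPNA6 and 88 to 44 for WLS.

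**Figure D3:**
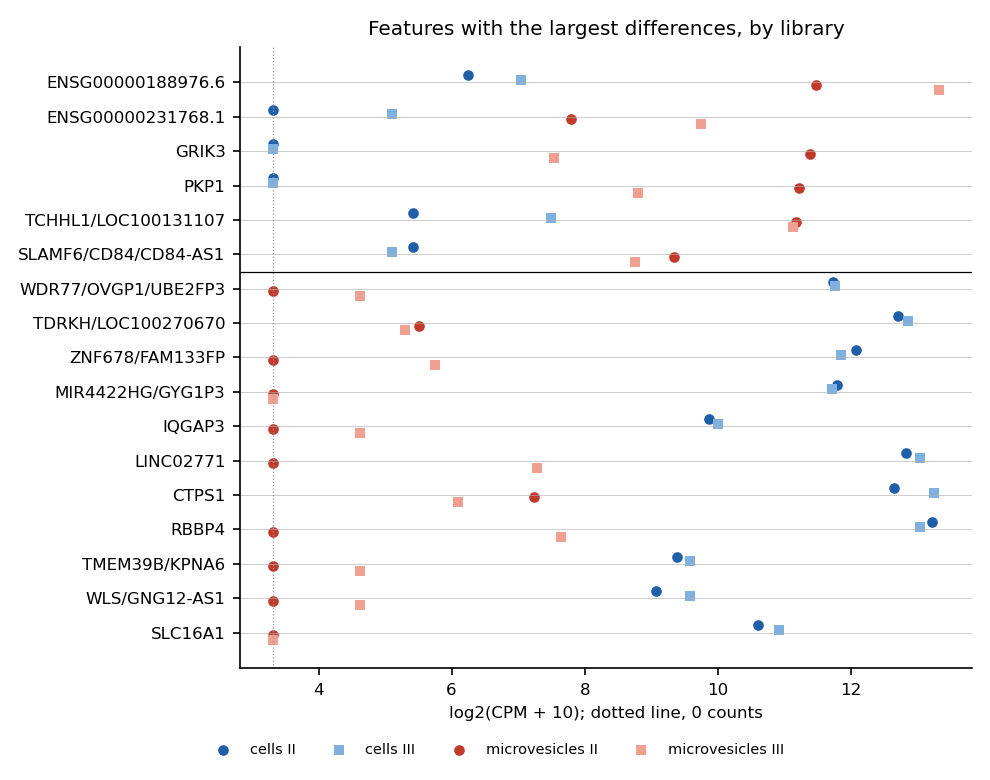
Level of each named feature (rows) in the 4 construct libraries on the x axis, log2(CPM + 10), with cells in blue and microvesicles in red, circles for culture II and squares for culture III; the dotted line is 0 counts and the horizontal line parts higher from lower features. Red and blue points do not overlap in any row, as the naming rule required, and the blue points of a lower feature lie close together while the red ones often differ.

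Where a gene had several intervals, they could be compared with each other. RBBP4 encodes a histone-binding subunit of chromatin assembly and deacetylase complexes, and 5 tested intervals lay over its span. The interval from 32665987 to 32670988 had 288, 345, 0 and 13 counts and fell by 6.36 ± 1.30 on the log2 scale (edgeR adjusted p = 0.0218), with a ratio of mean CPM of 94.5 that was 47.2 without microvesicles II. The next, from 32671236 to 32674288, had 254, 302, 1 and 24 counts and fell by 5.25 ± 1.09 (adjusted p = 0.0226), and SYNC/RBBP4, from 32680073 to 32687972, had 259, 259, 10 and 7 counts and fell by 5.08 ± 0.97 (adjusted p = 0.0201). Without microvesicles II or III the ratio of mean CPM of the second interval, 40.8, was 22.5 or 223, and that of SYNC/RBBP4, 32.6, was 72.8 without II and 21 without III. The remaining 2 had log2 fold changes of -4.70 and -1.19 and did not pass (adjusted p = 0.0716 and 0.447). Other genes were less even: of 107 genes with at least 2 tested intervals over that gene alone, the intervals of 60 all had the same sign. Among the 15 of these genes with a lower interval, all intervals were negative for 7, namely RBBP4, EXOSC10, NDC1, SRRM1, TUT4, UBAP2L and UCK2. The 8 intervals of EIF4G3, a translation initiation scaffold, ranged from -7.10 to 1.87 with 1 lower. Some genes with a lower interval also had a strongly positive one, none of them called. Their intervals ranged from -8.22 to 7.51 for URB2, -7.6 to 3.89 for METTL13, -5.01 to 5.26 for LPGAT1 and -4.06 to 3.43 for DNAJC11. Intervals of a gene share its transcripts and are not independent.

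Genes for RNA-binding and splicing proteins held the most lower calls of any list. Of 44 tested intervals over these genes, 6 were lower (13.6%, against 4.54% of all features tested) and 0 higher. Their median log2 fold change was -1.69 against 0.36 over all features and 0.00 over protein-coding spans. Where the list gene was the main name of the interval, these were 5 of 24 and -2.51. A lower call needs reads in the cells, and 437 features had at least 10 counts in both lysates. For this list and those below, the share among features of like cell level was not computed. EXOSC10 (11072414 to 11085796), the nuclear exosome ribonuclease, had 140, 274, 2 and 11 counts and fell by 5.53 ± 0.93 on the log2 scale (edgeR adjusted p = 0.0201). SRRM1 (24645812 to 24690972), a splicing coactivator with serine and arginine repeats, had 162, 183, 1 and 13 counts and fell by 5.31 ± 1.27 (adjusted p = 0.0403). SF3A3 (37958176 to 37980375), a subunit of the U2 small nuclear ribonucleoprotein, had 183, 314, 4 and 47 counts and fell by 4.0 ± 0.98 (adjusted p = 0.0422). In all of these both vesicle libraries lay well under both lysates. DHX9/NPL/DHX9-AS1, at a nuclear RNA helicase, had 45, 72, 0 and 3 counts and a ratio of 53.0 (17.7 to 260, adjusted p = 0.0211). ITGA10/GNRHR2/RBM8A, at an exon junction core protein, had 186, 249, 7 and 11 counts and fell by 4.92 ± 0.92 (adjusted p = 0.0201). RO60/UCHL5, at a protein that binds small non-coding RNAs, had 18, 54, 0 and 0 counts, at least 30.8-fold lower in vesicles (adjusted p = 0.0201). These folds depended on single vesicle libraries. The ratio of mean CPM without microvesicles II or III was 9.99 or 48.4 for SF3A3 (16.6 with both), 25.9 or 139 for SRRM1 (43.6) and 35.2 or 79.9 for EXOSC10 (48.9). It was 37 without II for DHX9 (74.1), and the bound of RO60/UCHL5 was 9.0 without III and 19.2 without cells III. The most abundant member, ILF2/SNAPIN, did not move past the threshold: its counts were 1212, 1590, 1322 and 733, with -0.46 ± 1.05 (adjusted p = 0.812), and its sign turned with upper-quartile or library-size scaling and without microvesicles III. LOC124904012/STK40/LSM10 lay on the other side, with 175, 274, 2164 and 1395 counts and 2.96 ± 0.92 (adjusted p = 0.0885).

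Cell cycle genes came next, with 4 lower (13.3%, against 4.54% of all features) and 0 higher of 30 tested intervals and a median of -1.86 (3 of 19 and -2.87 by main name). Of the 4, 3 were intervals of a single gene, RBBP4, given above, and the other was ANP32E/RNU2-17P, at a chaperone of the histone variant H2A.Z, which had 89, 104, 3 and 11 counts and fell by 4.31 ± 0.89 on the log2 scale (edgeR adjusted p = 0.0226). RCC1, the nuclear exchange factor of Ran, had log2 fold changes between -3.27 and -2.31 on its 4 intervals, none past the threshold. The most abundant member, FLAD1/CKS1B, where CKS1B is a subunit of cyclin-dependent kinases, had 372, 541, 1259 and 1106 counts and 1.25 ± 0.81 (adjusted p = 0.372), higher in both microvesicle libraries than in both lysates.

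Calls among translation genes were about as frequent as among all features. Of 24 intervals over translation factors and tRNA synthetases, 1 was lower (4.17%, against 4.54% of all features), an EIF4G3 interval with 16, 8, 0 and 1 counts (ratio 32.6, 5.31 to 1340, edgeR adjusted p = 0.0461), and the median was -0.87. The ratio of mean CPM of the EIF4G3 interval was 49.6, and 24.8 without microvesicles II and 26.8 without cells II. SERBP1/IL12RB2, at a ribosome-associated protein, had 795, 1033, 154 and 336 counts and -2.31 ± 0.78 (adjusted p = 0.112). The 4 intervals over ribosomal protein genes lay between -1.98 and -1.41 and none passed. Their median was -1.67. With a filter on the construct libraries it was -0.61, and that of all features was -0.02. The 2 intervals of RPL11 had 139, 220, 92 and 36 counts and 241, 341, 105 and 30. All 8 mitochondrial ribosome intervals had values under 0 (median -0.53) and none passed. Their median was above 0 with upper-quartile or library-size scaling and with a filter on the construct libraries, whether all 8 libraries or these 4 alone were fitted, and 4 of 8 were under 0 with DESeq2 size factors. The most abundant, MRPL55/RPS28P3, had 578, 786, 597 and 587 counts.

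The other lists gave few calls, all lower, at shares near the 4.54% of all features. Of 33 intervals over membrane protein and vesicle genes 2 were lower (6.06%), SLC16A1 above and TMCO1, a calcium channel of the endoplasmic reticulum, which had 181, 320, 3 and 33 counts and fell by 4.49 ± 0.96 on the log2 scale (edgeR adjusted p = 0.0281). The ratio of mean CPM of TMCO1 was 23.4, and 14.3 or 64.9 without microvesicles II or III. Their median was -0.24, above 0 with upper-quartile or library-size scaling, without a filter, with R2 alone and without microvesicles II, and their most abundant interval, PFN1P1/VAMP4, over a processed profilin pseudogene and a vesicle SNARE gene, had 991, 1017, 375 and 117 counts (-1.94 ± 1.10, adjusted p = 0.308). Of 28 intervals over actin and small GTPase genes 1 was lower (3.57%), NUP133/ACTA1, which had 159, 248, 7 and 20 counts and fell by 4.37 ± 0.84 (adjusted p = 0.0201); NUP133 is a nuclear pore protein, and ACTA1, skeletal muscle actin, was the list's gene. The median of the actin list was -0.14, and above 0 with DESeq2, upper-quartile or library-size scaling and without a filter. Of 13 stress gene intervals 1 was lower (7.69%), WRAP73/MEGF6/TP73, with 48, 47, 0 and 0 counts, at least 44.1-fold lower in vesicles (adjusted p = 0.0201), by the TP73 span only; the bound was 12.9 without microvesicles III. No interval passed among 5 of the proteasome (median -1.35), 10 of the respiratory chain and mitochondria (-1.52), 15 of glycolysis and redox (-0.56, above 0 with upper-quartile or library-size scaling or a filter on the construct libraries), 3 of S100 and annexin genes (-1.27) and 3 of histone genes (-2.34). Of m6A machinery, YTHDF2, a paralogue of YTHDF1, had 1 tested interval, OPRD1/YTHDF2/GMEB1, with 5, 2, 2 and 20 counts (0.88 ± 1.08, adjusted p = 0.622). All of these lists were made with results of these data known, so their counts are a description.

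**Figure D4:**
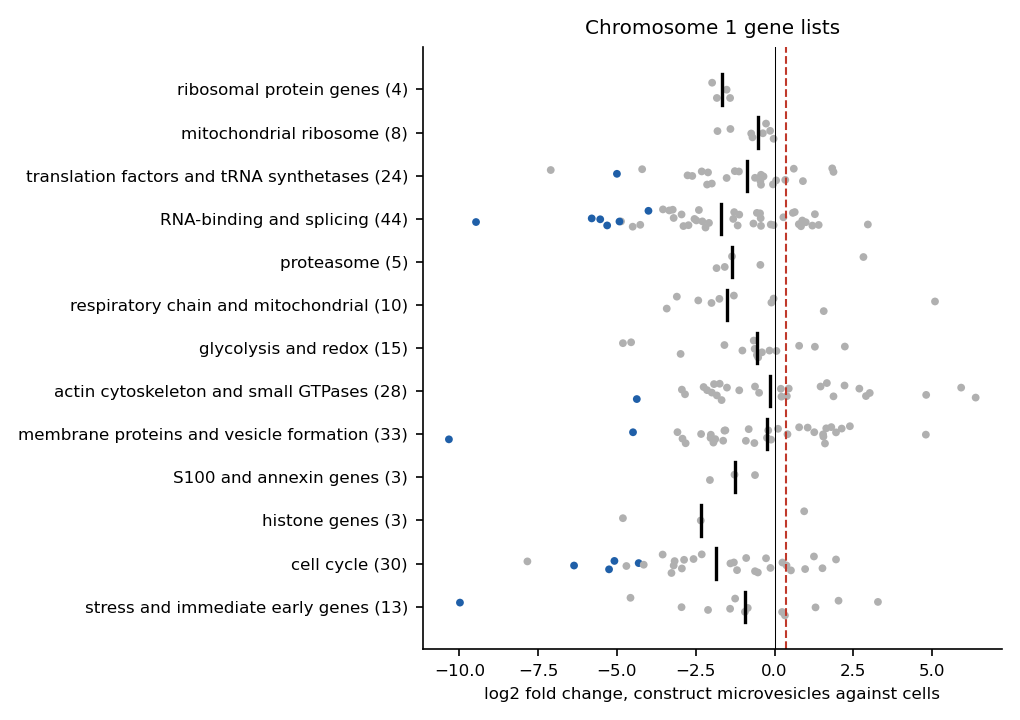
Log2 fold change of construct microvesicles against cells (x axis) for each tested interval over a gene of 13 chromosome 1 lists (rows, number of intervals in brackets; lists with under 3 are not drawn); blue points are lower at an adjusted p under 0.05, grey points are not past it, black bars are list medians and the red dashed line is the median of all features, 0.36. List medians lie between -2.34 and -0.14 with TMM scaling. Those of the mitochondrial ribosome, glycolysis, actin and membrane lists turn above 0 under other scalings or filters. The median over protein-coding spans, not drawn, was 0.00.

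Markers of other cell types were sparse. The summed share of the leukocyte list was 0.117% and 0.113% of counts in construct cells and 0.170% and 0.372% in microvesicles; of its 16 genes 8 had no count in the construct libraries, CD2, CD52 and FCER1G among them. Of its 6 tested intervals SLAMF6/CD84/CD84-AS1 was higher and PTPRC/PTPRC-AS1/PEBP1P3, at the leukocyte phosphatase CD45, was lower, with 26, 32, 0 and 3 counts (ratio 26.2, 8.55 to 131, edgeR adjusted p = 0.0388). Its ratio of mean CPM was 37.4, and 18.7 without microvesicles II. The neuron and glia list held 0.270% and 0.153% against 0.455% and 0.625%, with GRIK3, higher, the 1 call of 12 intervals. Over all features tested 0.426% were higher and 4.54% lower, and 6 and 12 intervals are too few to set against these shares. The median log2 fold change was 1.63 for the leukocyte list and -0.07 for the neuron and glia list. It was 0.36 over all features and 0.00 over protein-coding spans. Epidermal genes held 0.00466% and 0.00341% of cell counts and 0% and 0.0609% of microvesicle counts, with 12 of 16 at 0, LORICRIN and IVL among them, so 3 counts would allow up to 0.00982% in microvesicles II. Muscle genes held 1.03% and 1.21% against 0.403% and 0.409%, with MYOG at 0. Of 8 muscle intervals 1 was lower (12.5%), NUP133/ACTA1, given above. Intervals over ACTA1 and RYR2 had 159 and 235 counts in cells II, and 248 and 404 in cells III. As NUP133/ACTA1 and RYR2/LOC100130331/ZP4 join several genes, this share need not come from muscle genes. The erythroid and platelet list, at 0.163% and 0.186% against 0.275% and 0.242%, and the liver list, at 0.0583% and 0.0119% against 0.0164% and 0.0849%, had 0 calls among 8 and 1 intervals. What part such cells or serum have in the differences was not tested.

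The features most abundant in cells were mostly at lower levels in construct microvesicles. The 20 most abundant features of the control cell lysates, which are not among the 4 libraries contrasted but share the model's estimate of the spread, held 30.6% and 29.0% of construct cell counts and 24.8% and 15.2% of construct microvesicle counts. Their log2 fold change was negative for 19 of 20, with a median of -1.68 against 0.36 over all features tested and 0.00 over protein-coding spans. Of the 20, 1 was called lower and 0 higher, a share near the 4.54% of all features. They held similar shares of construct and control cell counts, so a choice by control lysates also favours features high in construct lysates. That choice favours negative values, and the 19 of 20 are a description. Without microvesicles III 16 of 20 were negative, and 14 with upper-quartile factors. The 1 called was CNIH3/AKR1B1P1/CNIH3-AS2 (224572845 to 224624735), over a pseudogene of aldose reductase, which had 752, 1058, 10 and 98 counts, with 25300 ± 704 CPM in cells and 891 ± 760 in microvesicles (SD, n = 2), and fell by 4.8 ± 0.97 on the log2 scale (edgeR adjusted p = 0.0218). ROR1/RPL19P3 had 896, 1338, 244 and 425 counts (-2.07 ± 0.94), RNPEP/RPL10P4/SNORA70H 739, 1018, 274 and 218 (-1.94 ± 1.22), POGZ/PSMB4 656, 848, 211 and 302 (-1.84 ± 0.86) and CCDC28B/TXLNA/EIF3I 1079, 1153, 477 and 846 (-1.13 ± 0.95), none past the threshold. The ratio of mean CPM of the CNIH3 interval was 28.4, and 17.7 or 71.5 without microvesicles II or III. The 1 on the other side was FLAD1/CKS1B. In control microvesicles the same 20 held 9.51% and 3.70% of counts, against 31.6% and 33.8% in control cells.

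Ratios were also taken culture by culture. With 10 CPM added, the log2 ratio of microvesicles to own lysate was positive in both cultures for 418 features, negative in both for 448 and opposite for 437, and 106 had a ratio of 0 in at least one. Pearson's r between the ratios of culture II and culture III was 0.462 and Spearman's correlation 0.419 across 1409 features, which share their libraries and are not independent. All 64 lower and all 6 higher features had the same sign in both cultures, as features without overlap do.

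**Figure D5:**
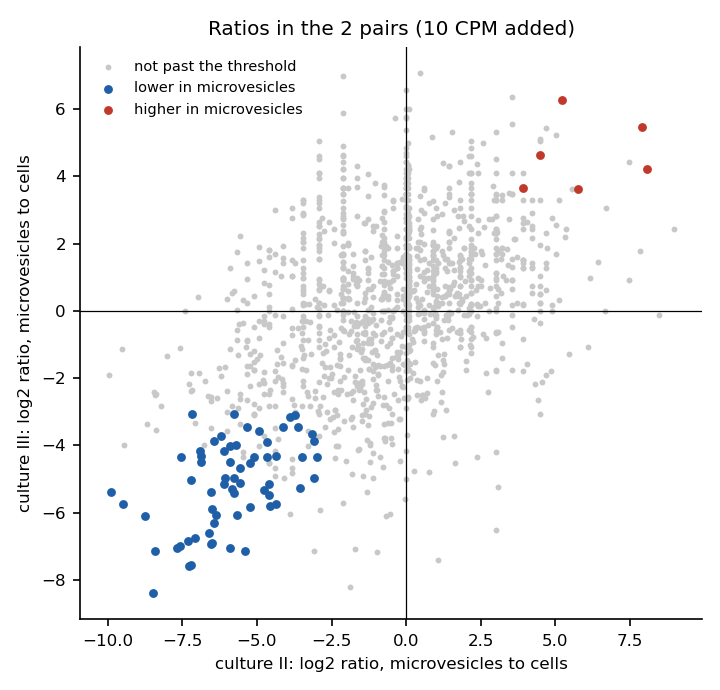
Log2 ratio of microvesicles to their own lysate, with 10 CPM added, in culture II (x axis) and culture III (y axis) for the 1409 features tested; blue points are the 64 lower and red the 6 higher features, grey points passed no threshold. Blue points fill the lower left quadrant and red points the upper right, while 437 features lie in the quadrants of opposite sign.

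Most of the lower features were lower in control microvesicles too. In control cultures, tested in the same model and so with a shared estimate of the spread, edgeR called 159 features higher (11.3%) and 257 lower (18.2%). The 64 lower features of construct cultures had 54 among the 257 (84.4% of the 64 and 21% of the 257), and 63 of the 64 had a negative value there. The 6 higher ones had 3 among the 159, PKP1, GRIK3 and the interval of ENSG00000188976.6.

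A test of the difference between cultures (the interaction of compartment and construct) called 20 of 1409 features (1.42%), 19 with a higher and 1 with a lower ratio of microvesicles to cells in construct cultures. The 19 were not enriched in construct microvesicles by the test: 0 of them were among the 6, their median log2 fold change in construct cultures was -0.05 (range -1.83 to 2.96), and in control cultures all 19 were called lower, with a median of -7.73. FLAD1/CKS1B differed by 9.44 ± 1.33 in log2 ratio (± SE; edgeR adjusted p = 0.00876), with 1259 and 1106 counts in construct and 12 and 6 in control microvesicles. MRPS14, a mitochondrial ribosome protein, had 337, 453, 376 and 27 counts in the construct libraries, and in control cultures 850 and 1264 in cells and 0 and 0 in microvesicles (adjusted p = 0.0374). HFM1/FEN1P1 had 91, 154, 225 and 215 counts against 242, 330, 0 and 0 (adjusted p = 0.00876). The 1 on the other side was an interval inside NOC2L (947377 to 948573), a nucleolar protein, at 41, 44, 0 and 0 counts in construct and 98, 81, 311 and 213 in control libraries (adjusted p = 0.0324). Leaving out any 1 cell library gave 0 interaction calls.

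Motif density in the transcripts showed little relation to the vesicle ratio, and transcript length and GC content had weak positive correlations with it. For 355 genes with a protein-coding transcript in the reference and an interval over that gene alone, the density of the motif GGACT in the mature transcript had a Spearman's correlation of -0.0186 with the log2 fold change, and -0.00984 and 0.0191 with the ratios of cultures II and III. The motif, searched on the transcript strand only, occurs in 88.8% of 1994 coding transcripts of chromosome 1. Each gene entered with a single interval, and that interval was lower for 26 genes, 25 of which have the motif. The 88.8% is over all coding transcripts and not over the 355 genes, so 25 of 26 cannot be set against it. The median density per kb was 0.894 in these 26 and 0.944 in all 355. The 26 are not all genes with a lower interval. UBAP2L, METTL13 and URB2, for example, entered with an interval that was not called, though another of theirs was lower. Spearman's correlation with the log2 fold change was 0.0887 for transcript length and 0.182 for GC content. With the ratios of cultures II and III it was 0.0851 and 0.122 for length, and 0.122 and 0.175 for GC content. Median GC was 46.7% in the 118 genes with the lowest and 51.4% in the 118 with the highest fold changes. Motif letters in a transcript are not measured methylation, and the transcripts are one per gene while reads may come from introns.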

How the data were processed

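Counts per feature were made by the authors with featureCounts 1.6.4 on GENCODE release 19, with strand setting 2 in single-read mode per the file headers; STAR and hg19 are named in the submitters' processing notes. Per the labels' protocols, libraries were made from total RNA after the SMART-Seq2 method with a Nextera kit, which does not mark strand. The R1 and R2 columns of a library (16 columns in all) were summed. Features were named by RefSeq GRCh38.p14 gene spans because the counts fit those positions. A split into exons and introns was planned, but no GRCh38 exons were used here, so shares were taken over gene spans, and no sequence is printed.

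After leaving out the 2 dominant features, edgeR 4.0.16 (R 4.3.3) was fitted with TMM factors and a filter on low counts by group to 8 libraries in 4 groups (quasi-likelihood test, Benjamini-Hochberg threshold 0.05), leaving 1409 of 5363 chromosome 1 features. SE was derived from the log2 fold change and the F statistic (change over root F). Folds against 0 counts are bounds at 3 counts over the group, and 1 to 3 counts are given with an exact conditional 95% interval. That interval pools the libraries of a group and leaves out the spread between them. The rule named, in each direction, up to 12 features with the largest change among those past the threshold, whose group of higher level averaged 100 CPM or more and whose libraries did not overlap; the 20 most abundant in control lysates; and each list's called members and its most abundant member. Features named outside it, among them further ones at 0 in vesicles, RCC1, RPL11 and other abundant ones, were chosen after their values were seen. Features that the rule names but the text does not are not reported here. Members and lists were chosen with earlier results of these data known. Nothing says that libraries of a group came from separate cultures beyond their numerals, so p-values measure only the spread between libraries, which may be technical. The design text pairs each lysate with its microvesicles; deviations from group means of same-numbered libraries correlated at -0.0278 in construct and 0.0236 in control cultures. The test was also run on simulated data in which all features shared the same spread. Within a group the simulated libraries differed only by depth and random error, unlike the 2 construct microvesicle libraries. No conclusion is drawn from that run. Alternatives were other scalings, filters, tools (DESeq2 1.42.0, limma 3.58.1), single read columns, the replicate block and leaving out each library.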

Additional observations from a re-analysis of the deposited data

Results flagged for a closer look

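The ratio of microvesicles to cells differed between construct and control cultures for 20 features by a test of that difference (edgeR adjusted p from 0.00876 to 0.0448). In log2 terms the ratio was higher in construct cultures by 5.48 for UBE2J2/C1QTNF12, 5.56 for RPF1, 5.97 for TIMM17A, 6.57 for S100A13/S100A1/CHTOP, 6.83 for SDF4/B3GALT6/C1QTNF12, 7.43 for S100PBP/YARS1, 7.73 for PUSL1, 7.88 for LOC124904412/BOLA1, 7.96 for LOC124904012/STK40/LSM10, 8.01 for DEDD/NIT1, 9.22 for RABIF and 9.44 for FLAD1/CKS1B. Where a vesicle group was at or near 0 the counts are given instead. Construct and control microvesicles had 86 and 2 counts at SLC25A44/PMF1-BGLAP/PMF1. Control microvesicles had 0 counts, against 53 in construct ones at a second DEDD/NIT1 interval, 203 at ENSG00000228697.1, 255 at TXNDC12/KTI12/BTF3L4, 199 at OAZ3/TDRKH/MRPL9, 440 at HFM1/FEN1P1 and 403 at MRPS14. The NOC2L interval lay the other way, with 524 counts in control and 0 in construct microvesicles.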

How the results depend on the processing

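Counts are given as higher, lower and interaction calls, against 6, 64 and 20. They were 11, 48 and 16 with DESeq2 size factors, 12, 32 and 13 with upper-quartile factors, 0, 0 and 13 with library size alone (365 at an unadjusted p under 0.05), 29, 61 and 62 without a filter, and 40, 98 and 77 with DESeq2's test. A filter on the construct libraries gave 45 and 46, limma-voom 17 and 86, keeping the dominant features 11 and 47, and R1 alone 8 and 38. The 4 construct libraries alone gave 0 and 0 with their own filter (edgeR, 191 unadjusted) and 20 and 73 with features kept. The replicate block, with pairing from the design text, gave 15, 73 and 21, and 55 of the 64 lower calls were kept. Leaving out 1 library each gave 0 to 32 higher, 0 to 113 lower and 0 to 77 interaction calls; the 0s came from leaving out any 1 cell library (178 to 263 unadjusted; DESeq2 was not run there). No direction of the 70 calls turned in any setting that held them, which their lack of overlap between libraries largely fixed in advance. The share on intervals with no gene, microvesicles minus cells, was 4.47 points, and 12.1 over features with at most 1 gene. For protein-coding spans it was -6.00, -22.9 with the dominant features kept and -16.2 over at most 1 gene, and for other genes 1.53, 19.9 and 4.08. List matches by any gene, the pseudogene class and ratios without 1 library were chosen after seeing the data. The low depth limits features under about 10 counts.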

Other observations

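The 10 most abundant features of construct microvesicles, chosen from these values and so given without a test, held 30.5% and 17.7% of microvesicle counts (II and III) and 13.2% and 12.6% of cell counts. LOC124904012/STK40/LSM10 was first, with 175 and 274 counts in cells and 2164 and 1395 in microvesicles, and 28 and 50 in control microvesicles. LOC105371211/NBPF15, at a gene of a repeated family whose copies are near-identical, had 333 and 349 counts in cells and 1538 and 1880 in microvesicles, and 4529 and 4648 in control microvesicles. LOC124904412/BOLA1 had 33 and 69 in cells and 385 and 512 in microvesicles.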
